A study of Mus musculus with 18 samples.

Results

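The perilipins and 5 related lipid droplet proteins were followed in adipose tissue of WT and C6KO mice, as 10 genes of the 25124 in the deposited count tables. The members were Plin1, Plin2, Plin3, Plin4, Plin5, Cidec, Fitm1, Fitm2, Bscl2 and Hilpda. They were identified by gene symbol, from a list drawn up with earlier results of these data known. All 10 were present in each table. The comparison asked which droplet coat genes moved with Plin5 when caspase-6 was absent, and in which fat depot.

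RNA had been measured in 3 fat depots: the inguinal (iWAT) and the epididymal (eWAT) white fat, and brown fat (BAT). Each depot had 3 libraries per genotype, which made 18. WT and C6KO mice were male, on a C57BL/6J background, and came from heterozygous by heterozygous breeding. C6KO mice are global knockouts, in which adipocytes and all other cells of a depot carry the deletion. Mice of both genotypes were fed a high fat diet (HFD, 60% fat) for 12 weeks, begun at 10 to 14 weeks of age, and no chow-fed group was among these libraries. The labels do not say whether the 3 depots came from the same animals.

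Lipid droplets are the triglyceride stores of a cell, a neutral lipid core under a single layer of phospholipid and a coat of proteins. The coat decides how readily lipases reach the core. Perilipin 1, the main coat protein of white adipocytes, holds the lipase co-activator ABHD5 away from adipose triglyceride lipase (ATGL, encoded by Pnpla2) until the cell is stimulated. Perilipin 5 is best known from brown fat, heart, skeletal muscle and liver, where it binds ATGL and ABHD5 and tethers droplets to mitochondria.

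Plin4, Plin5 and Plin3 share chromosome 17, and Cidec and Hilpda share chromosome 6. In mm10 the counted transcript of Plin5 (NM_001077348) spans chr17:56111601-56117298 on the minus strand, and that of Plin4 (NM_020568) spans chr17:56100591-56109802 on the same strand, 1.8 kb downstream of it. Plin3 (NM_025836, chr17:56278962-56290511) lies 161.7 kb beyond Plin5. Plin1 (NM_001113471) spans chr7:79721164-79732776, Plin2 (NM_007408) chr4:86656565-86670059, Cidec (NM_001301295) chr6:113424634-113435760 and Fitm2 (NM_173397) chr2:163468703-163472629, all on the minus strand. Fitm1 (NM_026808, chr14:55575674-55576952), Bscl2 (NM_008144, chr19:8839328-8848683) and Hilpda (NM_023516, chr6:29272626-29275449) lie on the plus strand. The eWAT table counted Bscl2 on a longer transcript (NM_001136064, 1948 bases) than the iWAT and BAT tables (1799 bases).

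The upstream sequence of Plin5 is shown beside those of Plin4, its neighbour, of Cidec, the member whose values ran closest to those of Plin5, and of Plin1, the main coat protein of white fat. Each line gives the 200 bases before the first base of the counted transcript, 5′ to 3′ in the direction of the gene (RefSeq annotation on GRCm38.p6, the assembly also called mm10). Capitals mark matches to the GC box GGGCGG, the core bound by SP1 family factors, on either strand.
Plin5, chr17:56117299-56117498, minus strand: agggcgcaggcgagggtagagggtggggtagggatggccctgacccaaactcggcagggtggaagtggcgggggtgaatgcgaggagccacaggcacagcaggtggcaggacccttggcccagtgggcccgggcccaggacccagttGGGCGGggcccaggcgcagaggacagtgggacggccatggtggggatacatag
Plin4, chr17:56109803-56110002, minus strand: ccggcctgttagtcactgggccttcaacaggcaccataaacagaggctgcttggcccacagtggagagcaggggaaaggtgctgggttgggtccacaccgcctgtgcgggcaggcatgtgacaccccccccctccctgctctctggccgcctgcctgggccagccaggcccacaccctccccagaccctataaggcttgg
Cidec, chr6:113435761-113435960, minus strand: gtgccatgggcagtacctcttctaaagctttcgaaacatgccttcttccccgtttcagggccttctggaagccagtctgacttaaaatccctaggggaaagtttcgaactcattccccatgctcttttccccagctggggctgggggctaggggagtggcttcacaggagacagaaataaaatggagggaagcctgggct
Plin1, chr7:79732777-79732976, minus strand: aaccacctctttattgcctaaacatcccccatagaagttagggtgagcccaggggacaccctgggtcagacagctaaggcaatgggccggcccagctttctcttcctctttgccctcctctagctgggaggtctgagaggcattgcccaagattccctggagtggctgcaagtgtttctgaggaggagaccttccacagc
All 10 members were matched in the promoter table. GGGCGG was found in the windows of 3 members, once in Plin5, once in Fitm2 and 3 times in Plin3, against 31.0% of the 32851 windows of the same length in the table. The motif AGGTCA, the core recognised by nuclear receptors such as PPARγ, was in none of the 10 windows and in 11.4% of all windows, and the repeat AGGTCANAGGTCA was in none of the 10 and in 0.0335% of all. None of these motifs was common to the 10 windows, and more distant sequence was not searched.

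Total counts ran from 16506034 to 19043523 in iWAT, from 16717201 to 19139694 in eWAT and from 7803108 to 12428683 in BAT. Casp6 (NM_009811, chr3:129901415-129914112) stood at 342, 338 and 289 counts in WT against 99, 112 and 141 in C6KO in iWAT, at 322, 422 and 331 against 100, 124 and 74 in eWAT, and at 145, 127 and 139 against 26, 65 and 71 in BAT. All C6KO libraries were lower than all WT libraries, with reads still counted on the gene (log2 fold change -1.51, -1.85 and -1.50 for iWAT, eWAT and BAT, edgeR adjusted p 0.0751, 0.0132 and 0.0671). BAT WT-2 held 4.32% of its counts in 13 skeletal muscle genes, against 0.00878% to 0.882% in the other BAT libraries. iWAT C6KO-3 had a summed level of 15 macrophage genes of 2369 CPM (counts scaled to library size by TMM, as in all CPM values), which lay between the 738 and 803 CPM of the other C6KO libraries and the 3197 to 3785 CPM of WT. In bulk tissue, fewer cells of a type and less RNA per cell cannot be told apart.

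Plin5, the perilipin of oxidative tissues, differed most of the members in white fat. In iWAT it had 310, 434 and 460 counts in the WT libraries and 1426, 1874 and 1335 in the C6KO libraries. All C6KO libraries thus lay above all WT libraries with a wide gap. The level rose from 23.1 ± 4.19 to 85.9 ± 14.4 CPM (mean ± SD, n = 3 each), a log2 fold change of 1.90 (SE 0.18, 3.72-fold, edgeR quasi-likelihood adjusted p = 0.00823). Plin5 was the only gene of 14533 tested that edgeR called higher in iWAT, where a call means an adjusted p under 0.05 and a fold change of at least 1.5, so the background of genes called higher was 0.00688%. DESeq2 gave a log2 fold change of 1.89 with an adjusted p of 1.44e-16, and called 1.15% of genes higher. The edgeR call was lost when WT-1, WT-2 or WT-3 was left out (adjusted p 0.0538, 0.0894 and 0.0655), while the log2 fold change stayed between 1.75 and 1.98 with any of the 6 libraries left out.

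In eWAT, Plin5 had 180, 138 and 234 counts in WT against 766, 274 and 575 in C6KO. The groups did not overlap, but C6KO-2 lay close to the highest WT library. The log2 fold change was 1.56 (SE 0.45, 2.96-fold), from 10.6 ± 3.05 to 31.4 ± 15.7 CPM, and did not pass edgeR's test (adjusted p = 0.153). It passed with DESeq2 (adjusted p = 0.000426) and, in edgeR, without C6KO-2, where the log2 fold change was 1.91 with an adjusted p of 0.0243, in a fit that called 347 genes in all against 111 with that library.

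In BAT, Plin5 had 4894, 4451 and 5718 counts in WT against 4989, 6094 and 6655 in C6KO. After scaling the groups overlapped, with 505 to 648 CPM in C6KO inside or just above the WT range, which ended at 633 CPM. The log2 fold change was 0.13 (SE 0.22, adjusted p = 0.839), and it was -0.05 without BAT WT-2.

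Per kilobase of transcript, on the scale of all 18 libraries, Plin5 stood at 296 ± 77.6 CPM per kb in BAT of WT mice, at 11.8 ± 2.16 in iWAT of WT and at 4.86 ± 1.41 in eWAT of WT. In C6KO the values were 319 ± 41.8 in BAT, 43.6 ± 7.23 in iWAT and 14.3 ± 7.13 in eWAT. In descending order of the means, the BAT groups of the 2 genotypes overlapped, C6KO iWAT stood apart on both sides, and C6KO eWAT overlapped with WT iWAT. As a percent of the WT mean in BAT, iWAT held 3.97% in WT and 14.7% in C6KO, and eWAT 1.64% and 4.82%. C6KO white fat thus remained well below brown fat in Plin5.

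**Figure D1:**
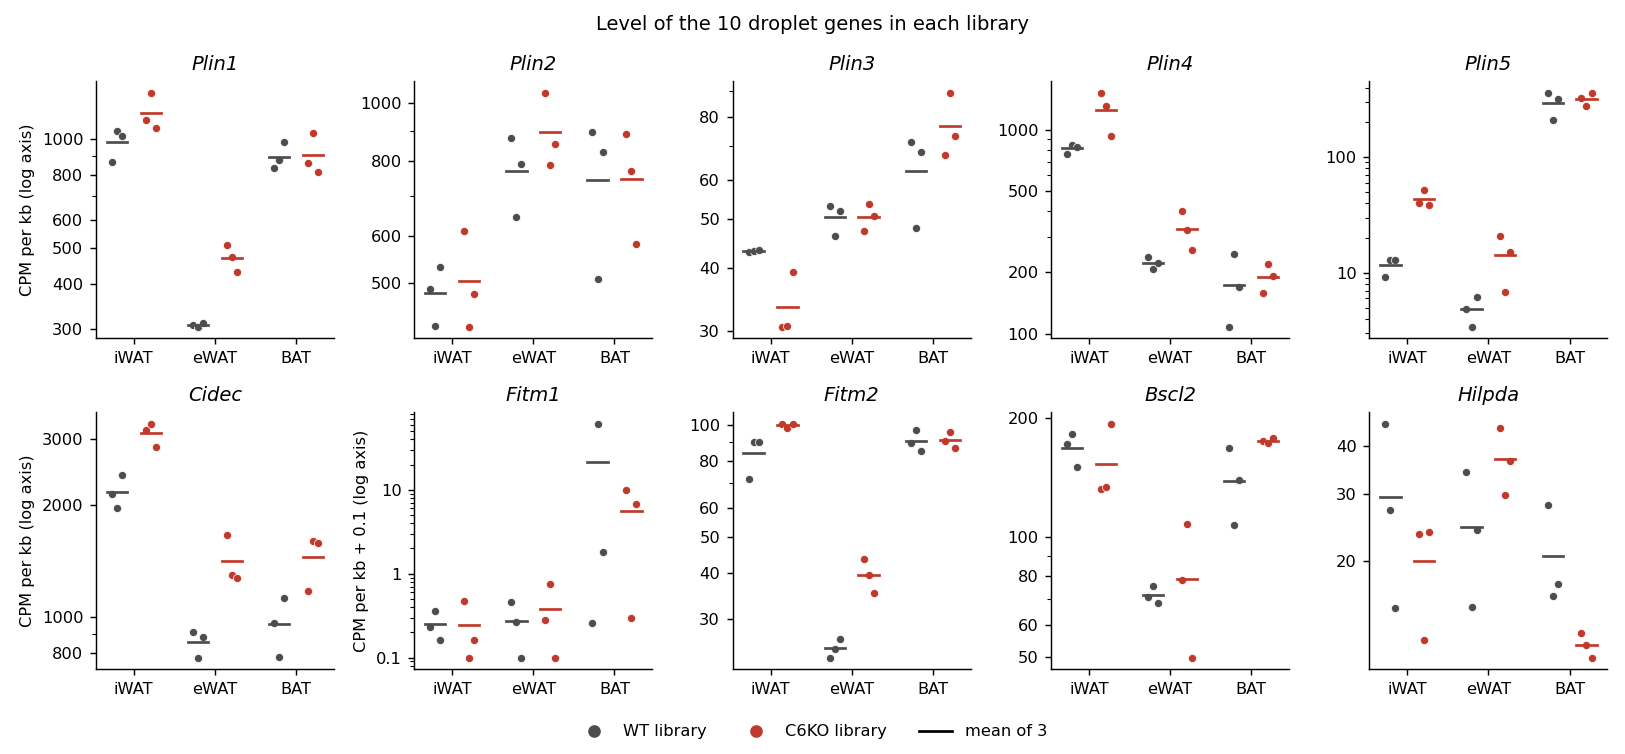
Level of each of the 10 genes in each library, as CPM per kb of transcript on a log axis (0.1 added for Fitm1), with WT libraries in grey, C6KO libraries in red and a line at the mean of 3. Plin5 in iWAT lies at a mean of 11.8 CPM per kb in WT and 43.6 in C6KO, and the BAT libraries lie at 210 to 361.

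Markers of other cell types and of adipocytes also differed between the genotypes, and their part in the Plin5 values was not tested. The summed level of 7 hepatocyte genes (Alb, Ttr and others, since liver also expresses Plin5) was 13.6 to 56.3 CPM in WT and 46.0 to 275 CPM in C6KO in iWAT, and 10.8 to 16.7 against 30.4 to 88.9 CPM in eWAT. In C6KO-1, C6KO-2 and C6KO-3 of iWAT these sums were 49.9, 46.0 and 275 CPM, beside Plin5 at 79.9, 102 and 75.6 CPM. In the same order for eWAT the sums were 30.4, 79.8 and 88.9 CPM, beside Plin5 at 46.0, 14.7 and 33.35 CPM. Of the hepatocyte genes, edgeR called 1 higher in eWAT (Ttr, background 0.537%) and DESeq2 called 5 higher there (background 2.78%). Neither called any in iWAT. The 13 skeletal muscle genes summed to at most 616 CPM in any white fat library, mostly from Acta1, and Ckm was at 0 in every iWAT library. The 9 brown adipocyte genes summed to 55.9 to 73.7 CPM in WT and 50.3 to 102 CPM in C6KO in iWAT, and to 48.9 to 54.9 against 44.7 to 64.2 CPM in eWAT, so the groups overlapped in both depots. Ucp1, the thermogenic uncoupler that defines brown adipocytes, was at 2.15 ± 0.863 CPM in WT and 2.01 ± 1.32 CPM in C6KO in iWAT. In eWAT Ucp1 was at 0.581 ± 0.434 CPM in WT and 2.47 ± 3.17 CPM in C6KO, with overlap (log2 fold change 2.06, edgeR adjusted p = 0.382). Of the brown adipocyte genes, edgeR called none of the 7 tested in iWAT and none of the 8 tested in eWAT. The 9 adipocyte genes (Adipoq, Fabp4 and others) summed to 18850 to 22010 CPM in WT and 25740 to 29510 CPM in C6KO in iWAT, and to 8225 to 9716 against 10720 to 14550 CPM in eWAT, with no overlap. Of the 9 adipocyte genes, edgeR called none in white fat and 1 lower in BAT (background 1.07%). DESeq2 called none of them in iWAT and 4 higher in eWAT (background 2.78%). In BAT DESeq2 called 1 higher and 1 lower (background 1.06% and 2.65%). The summed level of the 15 macrophage genes was lower in C6KO in each depot. It was 3197 to 3785 CPM in WT against 738 to 2369 CPM in C6KO in iWAT. The sums were 12880 to 13690 against 10060 to 11390 CPM in eWAT, and 972 to 1228 against 291 to 480 CPM in BAT. Singly, 2 of the 15 were higher in eWAT and 1 of 14 tested was higher in BAT. edgeR called none of them in white fat and 8 lower in BAT (background 1.07%). DESeq2 called 6, 3 and 13 lower in iWAT, eWAT and BAT, against a background of 3.42%, 1.23% and 2.65%.

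Plin4, the largest perilipin, coats small droplets in white adipocytes and is also expressed in muscle. Its counts in iWAT were 74062, 81714 and 84290 in WT against 155918, 137093 and 93451 in C6KO. All C6KO libraries were above all WT libraries, and C6KO-3 was nearest to WT. The log2 fold change was 0.64 (SE 0.20) with an adjusted p of 0.201 in edgeR and of 0.0301 in DESeq2. Without C6KO-3 it was 0.79 and edgeR called Plin4 (adjusted p = 0.0152), in a fit that called 1278 genes in all against 4 with that library. In eWAT the counts were 25155, 24436 and 24117 in WT against 42453, 37785 and 28451 in C6KO, again without overlap. The log2 fold change there was 0.56 (adjusted p = 0.12, or 0.0108 with DESeq2 at a fold change of less than 1.5). BAT held 4269, 15082 and 8843 counts in WT against 7113, 14075 and 10258 in C6KO, with a log2 difference of 0.12 (adjusted p = 0.895). The WT range was the wider, and its highest library was BAT WT-2, the one rich in muscle transcripts. Hdgfl2 overlaps the span of Plin4 on the opposite strand, and its mean was 1190 counts in iWAT against 104421 for Plin4.

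Cidec, which joins droplets at their contacts and lets lipid pass into the larger one, lay higher in every C6KO library of the 3 depots. In iWAT its counts were 61782, 56549 and 73339 in WT against 96752, 102988 and 85548 in C6KO. In eWAT they were 28726, 27028 and 28560 against 52421, 45259 and 41851. In BAT they were 11283, 14249 and 17487 against 15660, 30331 and 25121. After scaling, every C6KO library lay above every WT library in all 3 depots, at 4844 to 5625 against 3317 to 4077 CPM in iWAT, 2427 to 3148 against 1476 to 1696 in eWAT and 1852 to 2512 against 1256 to 1748 in BAT. The log2 fold changes were 0.53, 0.73 and 0.61, and none passed edgeR's test (adjusted p 0.191, 0.0546 and 0.23). With DESeq2 the adjusted p was 0.0118, 3.35e-05 and 0.0477, and Cidec was called in eWAT and BAT but had a fold change of less than 1.5 in iWAT.

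Plin1 rose in eWAT. Its counts there were 10514, 11442 and 10882 in WT against 17377, 17913 and 15244 in C6KO, or 627 ± 7.06 against 963 ± 79.7 CPM. The 3 WT libraries lay within a narrow band and all C6KO libraries lay above it. The log2 fold change was 0.62 (SE 0.11, 1.54-fold, adjusted p = 0.0468). In iWAT the counts were 27054, 32715 and 33810 in WT against 37352, 45304 and 34776 in C6KO, a log2 difference of 0.28 (adjusted p = 0.424). In BAT they were 10531, 17337 and 16465 against 12442, 21472 and 14042, with overlapping groups and a log2 difference of 0.03 (adjusted p = 0.97). The eWAT call for Plin1 was lost without any 1 of the libraries WT-1, WT-2, WT-3, C6KO-1 or C6KO-3, with an adjusted p of up to 0.19, while the log2 fold change stayed between 0.57 and 0.68.

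Plin2 and Plin3 are the perilipins found in most cell types, Plin2 bound to droplets at all times and Plin3 moving between cytosol and droplets. Plin2 had 15447, 13374 and 17801 counts in WT against 20439, 14463 and 15731 in C6KO in iWAT, and the groups overlapped. The log2 fold changes of Plin2 were 0.07, 0.22 and 0.03 in iWAT, eWAT and BAT, with adjusted p values of 0.868, 0.538 and 0.977. In eWAT its counts were 30333, 24624 and 28117 in WT against 36045, 30236 and 30776 in C6KO, and in BAT 11489, 10209 and 14134 against 13052, 16082 and 10189. Plin3 was lower in the C6KO libraries of iWAT, with 1560, 1559 and 1668 counts in WT against 1171, 1202 and 1471 in C6KO. The groups did not overlap, and the log2 fold change was -0.36 (adjusted p = 0.218). In eWAT Plin3 had 2113, 2023 and 2112 counts in WT against 1874, 2348 and 2094 in C6KO, a log2 difference of 0.01 (adjusted p = 0.984). In BAT it had 1048, 1104 and 1331 counts in WT against 1130, 2137 and 1468 in C6KO, a log2 difference of 0.31 (adjusted p = 0.526). Of the 5 perilipins, Plin2 and Plin3 were thus the ones without a C6KO excess over WT in every white fat library.

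**Figure D2:**
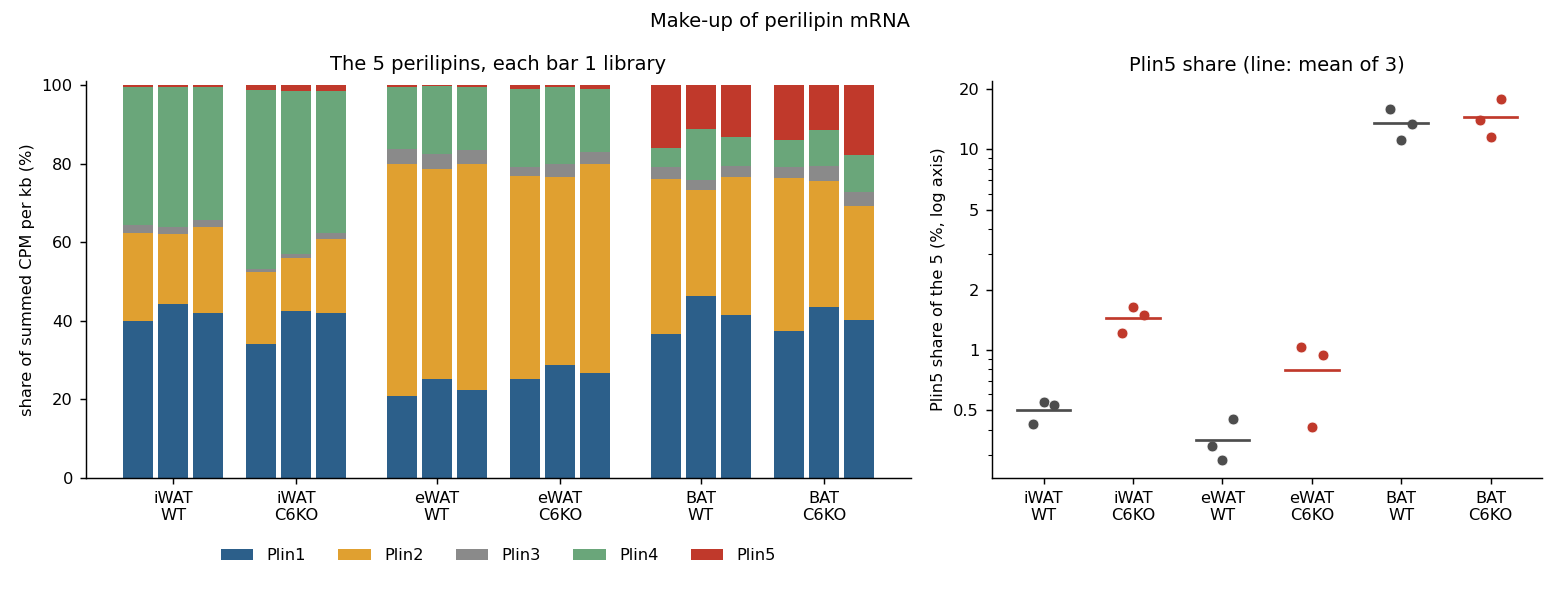
Share of each perilipin in the summed CPM per kb of the 5, per library (left, in percent), and the Plin5 share alone on a log axis (right, with a line at the mean of 3). The Plin5 share is 0.427% to 0.548% in WT iWAT, 1.21% to 1.64% in C6KO iWAT and 11.1% to 17.8% in BAT.

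Set against each other per kilobase, the 5 perilipins made up a different mixture in each depot. In iWAT of WT mice Plin1 held 42.1% ± 2.15 of the summed level, Plin4 34.8% ± 0.95, Plin2 20.7% ± 2.52, Plin3 1.86% ± 0.106 and Plin5 0.503% ± 0.0661 (SD, n = 3). In eWAT of WT mice Plin2 led with 56.6% ± 2.96, ahead of Plin1 with 22.8% ± 2.2 and Plin4 with 16.5% ± 0.733. In BAT of WT mice Plin1 held 41.5% ± 4.86, Plin2 33.8% ± 6.35, Plin5 13.5% ± 2.4 and Plin4 8.32% ± 4.22. In C6KO iWAT the Plin5 share was 1.45% ± 0.221 and above every WT library, while Plin1 held 39.5% ± 4.81 and overlapped with WT. The Plin4 share in C6KO iWAT was 41.1% ± 4.67, with its lowest library at 36.3% against a WT maximum of 35.6%. In C6KO eWAT the Plin5 share was 0.796% ± 0.337, and C6KO-2 with 0.411% lay below the highest WT library with 0.451%. The summed level of the 5 was 2329 ± 138 CPM per kb in WT and 3022 ± 401 in C6KO in iWAT, 1356 ± 136 against 1758 ± 228 in eWAT, and 2174 ± 252 against 2239 ± 196 in BAT. Perilipin mRNA as a whole was thus higher in every C6KO library than in any WT library in both white depots and overlapped in BAT.

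Fitm2 and Fitm1 encode the FIT proteins of the endoplasmic reticulum, which bind triglyceride and are needed for droplets to bud. Fitm2, the form of adipose tissue, had 717, 831 and 823 counts in WT against 1316, 1321 and 1111 in C6KO in eWAT. The groups did not overlap and the log2 fold change was 0.66 (SE 0.11, 1.58-fold, adjusted p = 0.0432), so Fitm2 was called higher in eWAT. As with Plin1, that call was lost without any 1 of the libraries other than C6KO-2 (adjusted p up to 0.19), with a log2 fold change of 0.59 to 0.73. In iWAT Fitm2 had 1984, 2492 and 2636 counts in WT against 2952, 2928 and 2891 in C6KO (log2 fold change 0.26, adjusted p = 0.353), and in BAT 1008, 1700 and 1268 against 1162, 1753 and 1331 (0.02, adjusted p = 0.972). The gene 2310001K24Rik overlaps Fitm2 on the opposite strand and had a mean of 20.3 counts in eWAT.

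Fitm1, the form of skeletal muscle and heart, was nearly absent from white fat, with 2, 4 and 1 counts in WT against 6, 0 and 1 in C6KO in iWAT and 6, 3 and 0 against 3, 12 and 0 in eWAT. It did not pass the filter on low counts in either white depot. In BAT it had 1, 599 and 14 counts in WT against 70, 2 and 56 in C6KO. The library with 599 counts was BAT WT-2, which also held 99401 counts of the muscle myosin Myh4 and 38587 of the muscle creatine kinase Ckm. BAT WT-1, with 1 count of Fitm1, held 71 and 30 of these. The log2 fold change of Fitm1 in BAT was -2.0 (SE 2.21, adjusted p = 0.77), and it was 2.47 without BAT WT-2. No C6KO effect on Fitm1 could be read from these libraries.

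**Figure D3:**
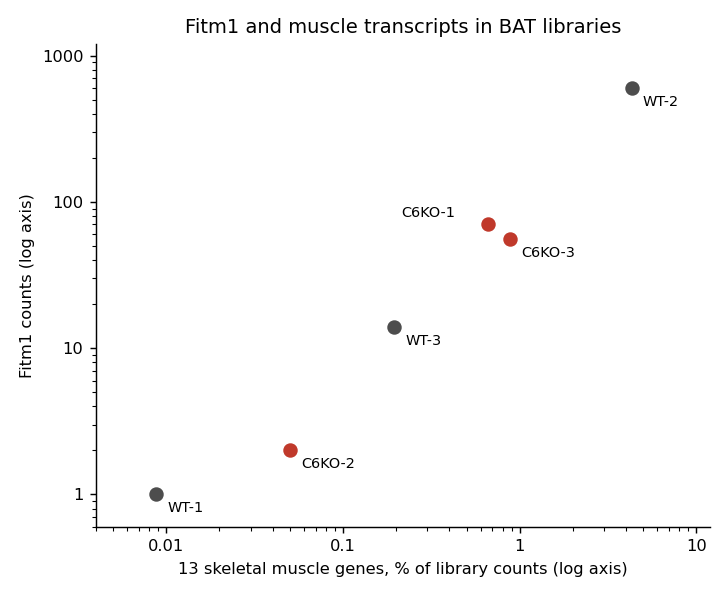
Fitm1 counts in the 6 BAT libraries (vertical, log axis) against the share of each library's counts in 13 skeletal muscle genes (horizontal, percent, log axis), WT in grey and C6KO in red. BAT WT-2 lies at 599 counts and 4.32%, and BAT WT-1 at 1 count and 0.00878%.

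Bscl2 encodes seipin, which forms rings at the sites where droplets leave the endoplasmic reticulum. Its counts were 5224, 5523 and 4818 in WT against 4247, 4382 and 6071 in C6KO in iWAT, with overlapping groups and a log2 difference of -0.13 (adjusted p = 0.745). In eWAT they were 2543, 2986 and 2528 against 2799, 4301 and 1864, where both the lowest and the highest library were C6KO (log2 fold change 0.14, adjusted p = 0.835). In BAT they were 2071, 2064 and 2281 against 2463, 3465 and 2986. After scaling the 3 C6KO libraries in BAT lay between 287 and 291 CPM and above the WT range of 182 to 268 CPM, with a log2 difference of 0.36 (adjusted p = 0.438).

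Hilpda, a small droplet protein induced by low oxygen and by fatty acids that inhibits ATGL, had estimates of opposite sign in the depots and passed edgeR's test in none. In iWAT it had 759, 449 and 263 counts in WT against 411, 222 and 408 in C6KO (log2 fold change -0.56, adjusted p = 0.561). In eWAT it had 620, 302 and 449 against 810, 596 and 690 (0.61, adjusted p = 0.339). The groups overlapped in both white depots. In BAT it had 188, 170 and 155 against 99, 131 and 102, without overlap, a log2 difference of -0.75 (adjusted p = 0.183).

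**Figure D4:**
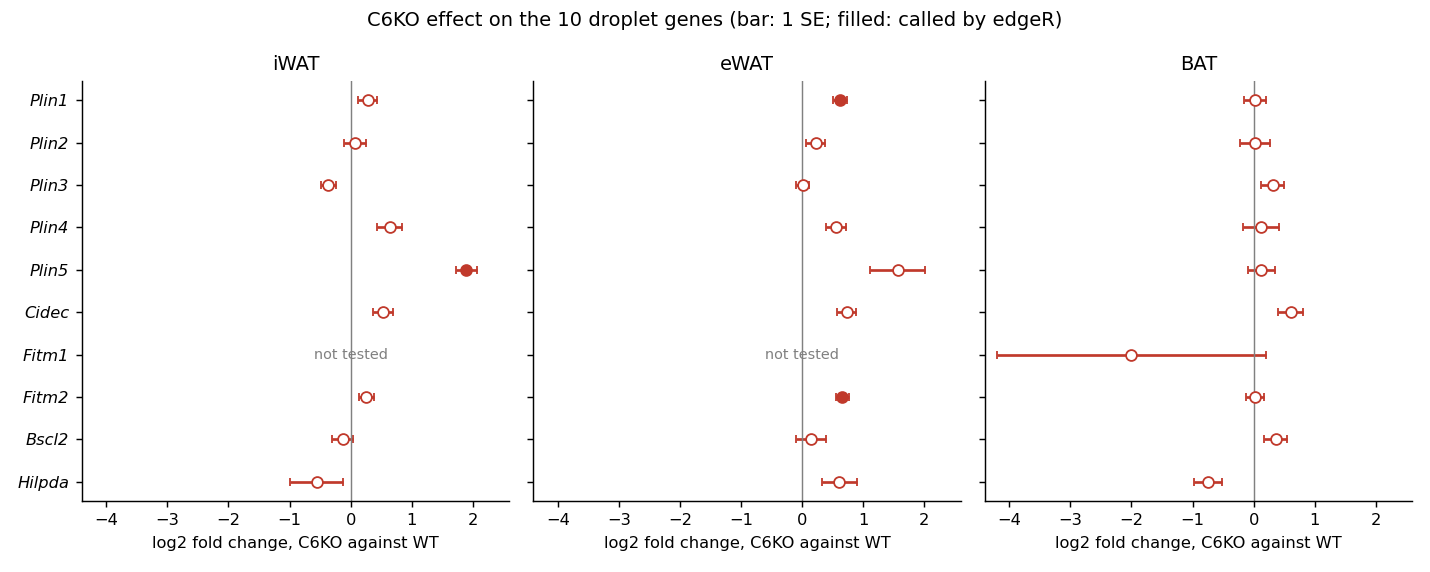
Log2 fold change of each gene, C6KO against WT, in iWAT, eWAT and BAT, with bars of 1 SE and filled points for genes called by edgeR. Plin5 in iWAT (1.90) and Plin1 (0.62) and Fitm2 (0.66) in eWAT are filled, and Fitm1 was not tested in white fat.

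Counted by depot, 9 members passed the filter on low counts in iWAT, of which 6 were higher and 3 lower in C6KO (53.8% of all genes were higher). The groups did not overlap for 6 of the 9, and 23.2% of all genes tested in iWAT were free of overlap. edgeR called 1 member (Plin5) and DESeq2 called 2 (Plin4 and Plin5), no member was called lower, and the background of genes called lower by edgeR was 0.0206%. In eWAT all 9 members tested had a positive log2 fold change, against 49.1% of all genes, although the value for Plin3 was 0.01 and turned to -0.04 with total counts as the only scaling. The groups did not overlap for 5 of the 9 (23.2% of all genes). edgeR called 2 members higher (Fitm2 and Plin1, background 0.537%) and DESeq2 called 4 (these with Cidec and Plin5, background 2.78%), and the background of genes called lower was 0.208%. In BAT 8 of the 10 tested members had a positive log2 fold change, against 46.1% of all genes, although Fitm2, Plin1 and Plin2 had 0.02, 0.03 and 0.03. In that depot 3 members were without overlap, Cidec and Bscl2 upwards and Hilpda downwards, against 20.2% of all genes. edgeR called no member in BAT, where 0.169% of genes were called higher and 1.07% lower. At an unadjusted p under 0.05 in edgeR there were 4, 5 and 2 members in iWAT, eWAT and BAT, and no share of all genes at that threshold is given. In BAT DESeq2 called 1 (Cidec, background 1.06%). DESeq2 called no member lower in any depot, against 3.42%, 1.23% and 2.65% of genes in iWAT, eWAT and BAT. The median log2 fold change of the members tested was 0.26, 0.61 and 0.07 in iWAT, eWAT and BAT, beside medians of 0.03, -0.01 and -0.03 over all genes.

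Whether the C6KO effect differed between depots was tested as an interaction with edgeR, fitting the 18 libraries together over 15866 genes. For Plin5 the effect in BAT minus that in iWAT was -1.78 on the log2 scale (SE 0.45, adjusted p = 0.165), and that in BAT minus eWAT was -1.45 (SE 0.46, adjusted p = 0.203). The effects in eWAT and iWAT differed by -0.33 (SE 0.46, adjusted p = 0.997). For Fitm2 the effect in BAT minus that in eWAT was -0.65 (adjusted p = 0.0848), and for Plin1 it was -0.60 (adjusted p = 0.221). edgeR called none of the 10 members in the 3 interactions. The background was 0%, 0.183% and 0.536% of genes called in eWAT against iWAT, BAT against iWAT and BAT against eWAT. At an unadjusted p under 0.05 there were 2, 2 and 4 members, and no share of all genes at that threshold is given. DESeq2 called Plin5 for BAT against iWAT (-1.79, adjusted p = 0.00779), and Plin5, Plin1 and Fitm2 for BAT against eWAT (adjusted p 0.0496, 0.0342 and 0.009), against a DESeq2 background of 1.32% and 2.59% of genes. For eWAT against iWAT DESeq2 called no member and 0.0848% of genes. A smaller effect on Plin5 in BAT than in white fat thus passed in DESeq2 and not in edgeR.

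Among WT mice, the members called between depots were read against the share of all genes called, which is given beside each count. Depth differed with the depot too, and whether the depots were sequenced together is not stated in the sources used here. Between eWAT and iWAT 7 of 10 members were called (25.7% of all genes), with Plin2 higher in eWAT (log2 difference 0.68, adjusted p = 0.0249) and Plin4 (-1.86), Fitm2 (-1.75), Plin1 (-1.67), Cidec (-1.34), Plin5 (-1.28, adjusted p = 0.00817) and Bscl2 (-1.12) lower. The call for Plin2 was lost without iWAT WT-1, iWAT WT-2, eWAT WT-1 or eWAT WT-3 (adjusted p 0.0629, 0.1, 0.0948 and 0.0652). The difference for Bscl2 was measured across different transcripts. BAT against iWAT gave 5 called members (38.7% of all genes), with Plin5 (4.65, 25.2-fold, adjusted p = 8.65e-08) and Plin2 (0.63) higher, and Plin4 (-2.22) and Cidec (-1.18) lower. The fifth was Fitm1, whose call rested on BAT WT-2 and was lost without it (adjusted p = 0.181), while Plin3 was called higher in that fit (0.69, adjusted p = 0.000647). The Plin2 call was lost without iWAT WT-1, iWAT WT-2, BAT WT-1 or BAT WT-3 (adjusted p 0.059 to 0.116) and with total counts as the only scaling (0.0604). BAT against eWAT gave 5 called members (48.6% of all genes), all higher in BAT: Plin5 (5.93, adjusted p = 5.54e-09), Fitm2 (1.86), Plin1 (1.54), Bscl2 (0.84) and Fitm1, again not without BAT WT-2 (adjusted p = 0.184). Without that library Plin4 was called lower in BAT (-0.68, adjusted p = 0.022). With total counts as the only scaling Plin4 was also called lower and Bscl2 was no longer called. The counts of 5 of 10 in each contrast with BAT lay near the shares of all genes called. Plin5 therefore had the largest depot difference in a member whose call did not depend on that library. Hilpda was called in none of the 3 contrasts of depots.

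The level of Cidec per kilobase in WT was 2168 ± 219 CPM per kb in iWAT, against 855 ± 69.6 in eWAT and 955 ± 174 in BAT. Its mean was the highest of the 10 members in each depot. Its WT libraries overlapped with those of Plin2 in eWAT (770 ± 116) and of Plin1 (896.5 ± 76.5) and Plin2 (744 ± 206) in BAT. The C6KO means of Cidec were 3112, 1410 and 1445 for iWAT, eWAT and BAT, and C6KO BAT and C6KO eWAT overlapped. For Plin2 each group overlapped with its neighbour in the order of the 6 means, from 895 CPM per kb in C6KO eWAT to 481 in WT iWAT. Fitm2 stood at 84.1 ± 10.7 CPM per kb in WT iWAT, 25.0 ± 1.42 in WT eWAT and 90.7 ± 5.93 in WT BAT, and at 39.5 ± 4.12 in C6KO eWAT, which was still below every iWAT and BAT library.

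To ask which genes varied most like Plin5, log2 CPM was centred on the mean of each depot's 6 libraries, and genes were ranked by their mean absolute difference from the Plin5 profile over all 18 libraries. The values are a description, since genotype, depth and tissue make-up are shared by all genes of a library. Of 13096 genes compared, the nearest were Slc1a3, a glutamate transporter (difference 0.29), Vnn1, a pantetheinase (0.33), Pck1, the enzyme that makes phosphoenolpyruvate for glyceroneogenesis (0.34), Timp4, an inhibitor of metalloproteinases (0.35), and Tinagl1, a matrix protein (0.35). The median over all genes was 0.68. Their log2 fold changes in iWAT were 1.94 for Slc1a3, 1.75 for Vnn1, 1.19 for Pck1, 1.19 for Timp4 and 0.74 for Tinagl1, and none was called there. In eWAT Timp4 (1.70, adjusted p = 0.0432) and Tinagl1 (1.14, adjusted p = 0.0419) were called. Among the members, Cidec was the nearest to Plin5 at rank 155 (0.49), then Fitm2 at rank 774 (0.56), Plin1 at rank 956 (0.57), Plin4 at rank 1242 (0.58) and Plin2 at rank 1520 (0.59). Hilpda (rank 7620), Bscl2 (rank 7739) and Plin3 (rank 8287) were farther from Plin5 than the median gene. Fitm1 was not ranked. Pnpla2, which encodes the lipase that perilipin 5 binds, was at rank 83 (0.45).

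**Figure D5:**
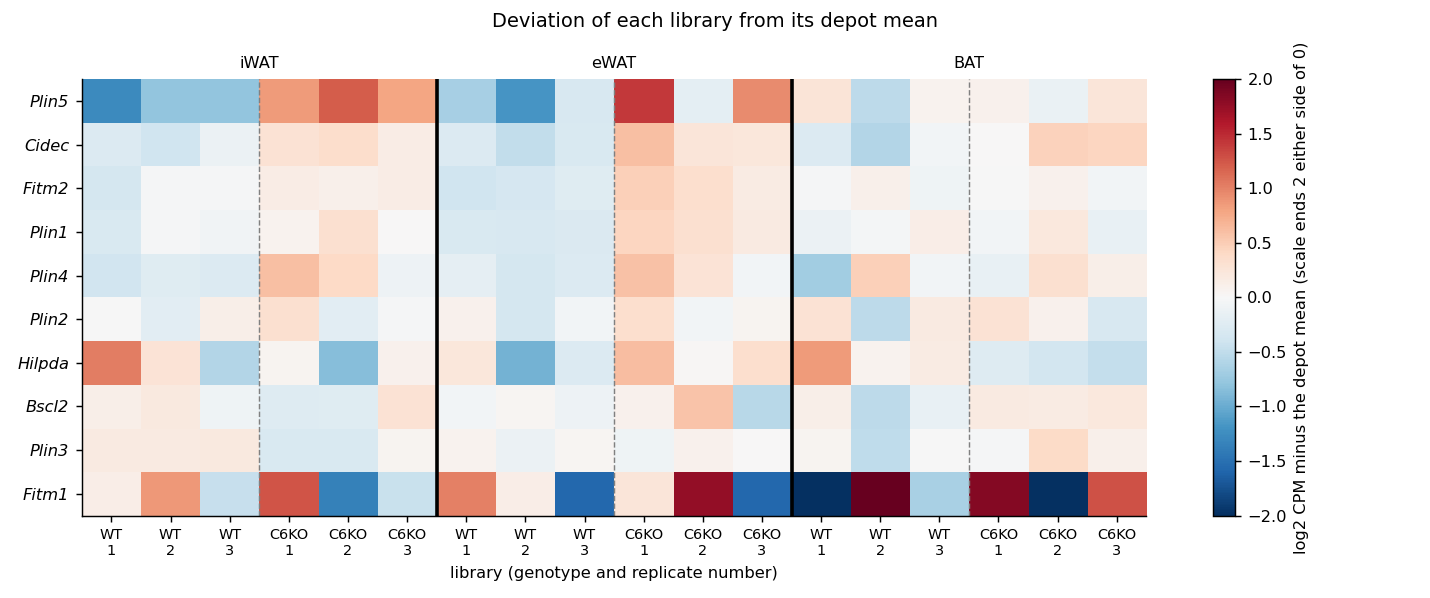
Log2 CPM of each gene in each library minus the mean of its depot's 6 libraries, in red where above and blue where below, with solid lines between depots and dashed lines between WT and C6KO. Rows run from Plin5 through the members in order of likeness to it, and Fitm1, which was not ranked, is last. Plin5 and Cidec are blue in the WT and red in the C6KO libraries of iWAT, and Plin3 is the reverse in all but C6KO-3 of iWAT.

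Of 23 other droplet surface genes, 22 were tested in iWAT (15 higher, 7 lower, none called), 23 in eWAT (18 higher, 5 lower) and 21 in BAT (13 higher, 8 lower, none called). Their median log2 fold change was 0.19, 0.27 and 0.09, beside 0.03, -0.01 and -0.03 over all genes. Lipe, the hormone-sensitive lipase, was the only one edgeR called, in eWAT (742 ± 26.9 to 1219 ± 91.7 CPM, log2 fold change 0.72, adjusted p = 0.0432). At an unadjusted p under 0.05 edgeR had 7 in iWAT, 9 in eWAT and 7 in BAT. DESeq2 called 2 in iWAT (Pnpla2 and Hsd17b13), 4 in eWAT (Pnpla2, Lipe, Cavin1 and Mgll) and 2 in BAT (Pnpla2 and Mettl7a1), all higher in C6KO. The background of genes called higher by DESeq2 was 1.15%, 2.78% and 1.06% in iWAT, eWAT and BAT, and by edgeR in eWAT 0.537%. Hsd17b13 in iWAT was near the floor, at 0.0392 ± 0.0339 CPM in WT and 1.05 ± 1.44 CPM in C6KO. It did not pass the filter on low counts there and was not tested by edgeR. Pnpla2 was above every WT library in every C6KO library of all 3 depots, with log2 fold changes of 0.73, 0.79 and 0.57 (adjusted p 0.158, 0.0524 and 0.162). Abhd5, its co-activator, had 0.22, 0.30 and -0.02 (adjusted p 0.391, 0.271 and 0.979), and G0s2, its inhibitor, 0.60, 0.48 and -0.16 (adjusted p 0.204, 0.105 and 0.817). Cidea, the CIDE protein of brown fat, was at 1584 ± 587 CPM in WT and 2550 ± 209 CPM in C6KO in BAT (log2 fold change 0.69, adjusted p = 0.336). In iWAT Cidea was at 10.2 ± 2.96 and 14.4 ± 6.24 CPM.

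Of 18 genes of triglyceride synthesis and droplet formation, 17 were found in the tables under the listed symbol and tested in each depot, and edgeR called none in any. At an unadjusted p under 0.05 there were 3, 4 and 3 in iWAT, eWAT and BAT. No share of all genes at that threshold is given for these or for the regulators below. DESeq2 called 1 (Lpin2, a phosphatidate phosphatase, lower in iWAT, background 3.42%). In iWAT 9 were higher and 8 lower, in eWAT 12 and 5, and in BAT 13 and 4, with median log2 fold changes of 0.00, 0.15 and 0.17. Dgat2, which makes the triglyceride of expanding droplets, had log2 fold changes of -0.01, 0.51 and 0.53 (adjusted p 0.989, 0.113 and 0.396). Of 10 transcriptional regulators of droplet genes, all were tested and neither edgeR nor DESeq2 called any, with 3, 3 and 2 at an unadjusted p under 0.05 in edgeR and 8, 8 and 7 higher in C6KO. Pparg, the master regulator of adipocyte genes, had log2 fold changes of 0.33, 0.30 and 0.25 (adjusted p 0.264, 0.149 and 0.727), with no overlap in either white depot. Ppara, which drives fat oxidation genes, had 0.84, 0.55 and 0.31 (adjusted p 0.458, 0.189 and 0.673).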

How the data were processed

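RNA from 18 adipose tissue samples was measured by poly(A) RNA-seq. The authors aligned the reads to mm10 with STAR and counted them on exons with HOMER, condensed to 1 transcript per gene, and deposited 1 table of raw counts per depot for 25124 genes, with the length of each transcript in bases. Tool versions and strandedness are not given in the sources used here, and the transcript differs between tables for 2619 genes, 1 of them a member. The authors' own DESeq2 results were not used here.

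Groups and replicate numbers were taken from the sample titles. All tests were fitted on the whole table, with p-values adjusted over all genes tested. For each depot, 3 C6KO and 3 WT libraries were compared with edgeR 4.0.16 (R 4.3.3), using filterByExpr, TMM scaling and robust quasi-likelihood tests. A call required an adjusted p (Benjamini-Hochberg) under 0.05 with at least a 1.5-fold change. The filter left 14533, 14889 and 13595 genes for iWAT, eWAT and BAT. Interactions (no fold change minimum) and depot contrasts came from 1 fit of all 18 libraries. CPM are TMM-scaled within a depot, and CPM per kb use the scaling of all 18 libraries divided by the listed transcript length. Log2 CPM for the likeness to Plin5 had a prior count of 1, over genes tested in all depots with a mean of at least 1 CPM. DESeq2 1.42.0, other scalings and filters, the replicate number as a block and leaving out each library were the alternatives. The scripts were tested on simulated data.

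The genes named are all 10 members, Casp6, the 5 genes most like Plin5, the genes called from the lists of droplet genes, and Pnpla2, Abhd5, G0s2, Cidea and Dgat2. Pparg, Ppara, Ucp1, Ebf2, Elovl3 and the muscle and liver genes named were chosen with their values in view. The members and lists were chosen with earlier results of these data known. The lists of progenitor and endothelial genes were also measured: the median log2 fold change in iWAT, eWAT and BAT was -0.93, -0.25 and -0.58 for 7 progenitor genes and 0.08, 0.43 and 0.19 for 5 endothelial genes. The 18 libraries held 0 identical pairs. Same-numbered WT and C6KO libraries did not deviate together (their deviations from the group means correlated at 0.00624 to 0.0563 in iWAT, at -0.0699 to 0.183 in eWAT, and at -0.586 to -0.277 in BAT), so the numbers were not taken as pairs. Reads that a droplet gene and an overlapping gene on the opposite strand share could not be told apart.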

Additional observations from a re-analysis of the deposited data

How the results depend on the processing

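Of 132 recomputed counts of members called, 112 stayed within 1.5 times the main count and 20 moved. With DESeq2 the members called in C6KO against WT were 2 in iWAT, 4 in eWAT and 1 in BAT, against 1, 2 and 0 with edgeR, and those with a different effect between depots were 1 for BAT against iWAT and 3 for BAT against eWAT, against 0 and 0. DESeq2 called 666, 619 and 547 genes of all kinds in iWAT, eWAT and BAT, against 4, 111 and 168 with edgeR, and 171 and 356 for these 2 differences between depots, against 29 and 85. In eWAT, total counts as the only scaling left 1 member among 67 genes called, and the fit of all 18 libraries left 0 among 4. The main eWAT fit had 2 members among 111 genes called. With at least 10 counts in every library, 3 members were called for BAT against iWAT among 4932 genes, against 5 among 6147 in the main fit. Fitm1 was then no longer tested and Plin2 no longer called. Leaving out each library in turn gave 0 to 2 members in iWAT (0 without WT-1, WT-2 or WT-3, 2 without C6KO-3), 0 to 4 in eWAT (4 without C6KO-2, 0 without any other) and 0 to 1 for the effect in BAT against eWAT (1 without eWAT C6KO-2). The genes of all kinds called moved too, to 1278 without iWAT C6KO-3 and 3 without any iWAT WT library, and to 347 without eWAT C6KO-2 and 2 to 33 without any other eWAT library.

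With the replicate number as a block, 1 member was called in iWAT, 5 in eWAT (Cidec, Fitm2, Hilpda, Plin1 and Plin5) and 0 in BAT, among 62, 414 and 113 genes called in iWAT, eWAT and BAT. The pairing has no basis in the labels.

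Of 363 recomputed log2 fold changes of single members, 15 reversed in sign. They were those of Plin3 in eWAT (-0.037 with total counts, -0.047 to 0.060 over the leave-one-out fits), Fitm1 in BAT (0.84 with the replicate block, -2.66 to 2.47 leaving out a library), Plin2 in iWAT (-0.090 to 0.19), Bscl2 in eWAT (-0.14 to 0.38), and Plin1 (-0.068 to 0.13), Plin2 (-0.16 to 0.18), Plin4 (-0.11 to 0.48) and Plin5 (-0.047 to 0.29) in BAT. None of these had passed the test. The causes were not tested. Fitm1 had 12 counts or fewer in any white fat library, too few to pass the filter.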
